A study of Mus musculus with 4 samples.

Results

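Ephrins and their Eph receptors were examined in single-cell RNA-sequencing of mouse mammary glands with and without deletion of Lats1 and Lats2 in luminal cells. The 10 genes were chosen by name from 28693 genes in the count matrices, and they make up 10 of the 22 ephrin and Eph genes listed there. They comprise 3 ephrins (Efna1, Efnb1 and Efnb2) and 7 receptors (Epha1, Epha2, Epha4, Ephb2, Ephb3, Ephb4 and Ephb6). All 10 were detected in every library by unique molecular identifiers (UMIs, tags that each mark an original mRNA molecule).

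The study sequenced 1 library from each of 4 mice. The WT mice, 2 in number, carried floxed alleles of Lats1 and Lats2 (Lats1f/f;Lats2f/f) and 1 copy of an EYFP reporter that is silent until Cre recombination, but no Cre. The 2 LATS1/2 KO mice had the same floxed alleles and also carried Krt8-CreERT2, a tamoxifen-activated Cre driven by the promoter of Krt8, a luminal keratin. The reporter was present in 1 copy in LATS1/2 KO 1 and in 2 copies in LATS1/2 KO 2. Every mouse, WT included, received 2 mg of tamoxifen on 5 days and its glands were taken 7 days after the last dose. Viable cells were sorted with no enrichment for a cell type.

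After filtering, 4914 and 3515 cells remained in WT 1 and WT 2, and 4499 and 5272 cells in LATS1/2 KO 1 and 2. These cells held 46810771, 42630666, 38792520 and 44758376 UMIs, respectively. Between 4 and 12 cell barcodes were shared by any pair of libraries. Cells were assigned to lineages by scores over marker genes, without clustering, and UMIs were then summed per lineage and library, so that the mouse was the replicate. A lineage name below stands for the cells that passed its marker scores. The sums are given as CPM, the counts of a gene scaled to a common total of UMIs in that sum.

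The labels were checked on the engineered genes. EYFP stood at 0.37 and 0.40 CPM in the luminal ER- (estrogen receptor-negative) cells of WT 1 and 2, and at 50.3 and 61.8 CPM in those of LATS1/2 KO 1 and 2. Lats1 in the same cells was 25.6 and 25.7 CPM in WT and 17.4 and 20.5 CPM in LATS1/2 KO (log2 fold change -0.77 ± 0.12 SE, adjusted p = 0.00139, edgeR quasi-likelihood test with Benjamini-Hochberg adjustment). Lats2 was higher in LATS1/2 KO, at 15.4 and 17.0 CPM in WT against 26.9 and 30.2 CPM in LATS1/2 KO (0.48 ± 0.12, adjusted p = 0.011). In luminal ER+ (estrogen receptor-positive) cells Lats1 was 21.6 and 21.6 CPM against 23.1 and 21.0 CPM (0.0014, adjusted p = 0.996). The libraries count the 3′ ends of transcripts, and a tag outside the deleted exons does not report the deletion. Ctgf, a target gene of the YAP and TAZ coactivators that LATS kinases restrain, was 15.0 and 10.2 CPM in WT and 341 and 493 CPM in LATS1/2 KO luminal ER- cells.

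Ephrins are cell-surface ligands that bind Eph receptor tyrosine kinases on a neighbouring cell, so that a signal passes only between touching cells. A-type ephrins are held in the membrane by a lipid anchor, whereas B-type ephrins span it and can signal back into the cell that carries them. In the mammary gland Eph signalling takes part in the layering of luminal and basal cells, and in vessels ephrin-B2 marks arteries while its receptor EphB4 marks veins. LATS1 and LATS2 are Hippo pathway kinases that inhibit YAP and TAZ, which act through TEAD transcription factors.

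Because TEAD factors bind a short motif with the core GGAATG, the 250 bases before each transcription start were searched for these letters on both strands, where the other strand reads as CATTCC. Of 32851 RefSeq promoter windows of this length on GRCm38.p6, 12.6% held the hexamer. All 10 genes were matched, in 11 windows, and 3 of them held it: Epha1, Efnb2 and Epha2. These 3 windows are shown because the genes they precede include those with the highest rises in luminal cells below, with the hexamer in capitals and each sequence read 5′ to 3′ toward the start. They are chr6:42373269-42373518 (Epha1, minus strand), chr8:8661243-8661492 (Efnb2, minus strand) and chr4:141300971-141301220 (Epha2, plus strand). A match of letters is a description of the sequence and does not show that a factor binds there.

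Epha1: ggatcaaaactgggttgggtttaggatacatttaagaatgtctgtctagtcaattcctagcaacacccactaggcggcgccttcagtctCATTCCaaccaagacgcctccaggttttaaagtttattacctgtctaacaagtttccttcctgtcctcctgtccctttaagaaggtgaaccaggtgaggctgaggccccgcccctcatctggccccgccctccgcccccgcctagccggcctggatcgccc
Efnb2: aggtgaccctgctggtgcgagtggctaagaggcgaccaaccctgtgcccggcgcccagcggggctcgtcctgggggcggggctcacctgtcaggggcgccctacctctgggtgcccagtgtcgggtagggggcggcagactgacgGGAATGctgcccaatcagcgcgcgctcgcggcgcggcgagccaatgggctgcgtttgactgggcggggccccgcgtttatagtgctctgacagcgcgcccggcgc
Epha2: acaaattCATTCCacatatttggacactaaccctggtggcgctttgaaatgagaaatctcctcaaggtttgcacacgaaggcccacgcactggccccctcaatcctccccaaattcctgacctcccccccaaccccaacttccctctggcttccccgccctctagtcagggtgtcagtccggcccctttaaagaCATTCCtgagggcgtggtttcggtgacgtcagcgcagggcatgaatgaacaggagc

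The hexamer began 161 bases before the start of Epha1 and 105 bases before that of Efnb2. In the Epha2 window it was found at 243 and at 56 bases before the start. The gene bodies lie at chr6:42358487-42373268 (Epha1), chr8:8617434-8661242 (Efnb2) and chr4:141301240-141329384 (Epha2) on GRCm38, and all 10 genes are annotated as protein coding.

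In WT glands most of the 10 genes differed between the luminal subtypes. Luminal ER- cells, the lineage that holds the secretory progenitors, had higher levels than luminal ER+ cells, the hormone-sensing lineage, for 8 of the 10 genes, and none was lower. Across all genes 60.4% differed between these subtypes (28.9% higher and 31.5% lower in luminal ER- cells), so a call alone does not set these genes apart. The median log2 difference of the 10 was 1.96, against -0.02 over all genes tested. Of the 7 other ephrin and Eph genes tested, 2 were higher and 2 lower (Efna3 at -1.80 and Efna4 at -1.45), with a median of 0.37. Scaling by library totals alone shifted the median of all genes by -0.19, less than any of the 8 differences.

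Efnb2, at 22.4 and 26.5 CPM in luminal ER- cells of WT 1 and 2, was at 3.54 and 2.57 CPM in luminal ER+ cells. Epha4, which binds ephrins of both types, was at 38.8 and 30.7 CPM against 2.59 and 1.63 CPM. Their log2 differences were 3.18 ± 0.19 SE (adjusted p = 1.97e-08) and 4.23 ± 0.16 (adjusted p = 2.47e-10, edgeR). Both genes were thus scarce in WT luminal ER+ cells, where Efnb2 rested on 56 and 41 UMIs and Epha4 on 41 and 26. Free RNA, estimated from genes that these cells are assumed not to make, would alone give 1.87 CPM of Efnb2 and 2.08 CPM of Epha4 in WT 2, and 0.46 and 0.76 CPM in WT 1. The luminal ER+ level of Epha4 in WT 2 was thus at background, and that of Efnb2 in WT 2 was near it. In WT 1 both levels lay above it. The sizes of both differences therefore rest in part on levels at or near background.

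Epha2, the main receptor for ephrin-A1, was at 176 and 175 CPM in luminal ER- cells and at 27.9 and 34.3 CPM in luminal ER+ cells of WT (log2 2.70 ± 0.10, adjusted p = 3.48e-10). Ephb3, a receptor for B-type ephrins, was at 57.7 and 54.7 CPM against 11.2 and 9.85 CPM (log2 2.61 ± 0.11, adjusted p = 6.15e-10). The remaining genes of the 8 were Ephb2 (3.07 ± 0.55), Efna1 (1.31 ± 0.11), Efnb1 (1.07 ± 0.12) and Ephb4 (1.05 ± 0.16). Epha1 and Ephb6 gave -0.09 ± 0.18 and 0.17 ± 0.25 and did not pass the test. Ephb2 was rare in luminal cells, at 0.63 and 2.33 CPM in luminal ER- cells of WT 1 and 2 and at 0.13 and 0.25 CPM, on 2 and 4 UMIs, in luminal ER+ cells. The latter was below the floor of 0.19 CPM set by 3 counts in WT 1, and free RNA alone would give 0.17 CPM in WT 2, so the size of the Ephb2 difference is not well determined. Free RNA would likewise give 12.4 of the 34.3 CPM of Epha2 and 3.88 of the 9.85 CPM of Ephb3 in luminal ER+ cells of WT 2, against 3.53 and 1.18 CPM in WT 1.

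Compared with luminal ER- cells, the WT basal cells that line the outside of the ducts had lower Epha2, Ephb3, Epha4 and Efna1, and no gene of the 10 passed as higher, although Efnb1 did with library totals (0.65, adjusted p = 0.0421). The share called over all genes in this comparison was 35.1% (15.7% higher and 19.3% lower in basal cells). Epha2 was at 34.6 and 30.3 CPM in basal cells (log2 -2.67 ± 0.18, adjusted p = 2.29e-07). The differences for Ephb3, Epha4 and Efna1 were -1.21 ± 0.20, -1.06 ± 0.25 and -0.95 ± 0.19. Efnb2 and Epha1 gave -0.82 ± 0.33 and -0.36 ± 0.46, and Efnb1, Ephb4, Ephb6 and Ephb2 gave 0.42 ± 0.21, 0.45 ± 0.29, 0.79 ± 0.49 and 1.21 ± 0.76, none past the threshold. With no low-count filter 5 of the 10 genes were called, all of them lower. Basal cells of WT gave only 179 and 154 cells, and the size of difference that could be detected with them was not tested.

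Ranked over the 7 WT lineages with at least 20 cells in each library, Efnb2, Ephb4, Epha4, Efnb1 and Efna1 had their highest mean level in endothelial cells. Efnb2 was 117 ± 73.4 CPM there (SD, n = 2) and its range did not overlap that of luminal ER- cells, next in order. For Efna1 and Efnb1 the endothelial range overlapped the next lineage, luminal ER- cells and basal cells respectively. Epha2 and Ephb3 were highest in luminal ER- cells, and Ephb6 in basal cells. Ephb2 was highest in fibroblasts, with 16.5 and 20.6 CPM, although these values rested on 4 and 2 UMIs. WT fibroblasts and endothelial cells were few (58 and 23, and 37 and 34 cells), which limits the precision of every stromal level in WT.

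**Figure D1:**
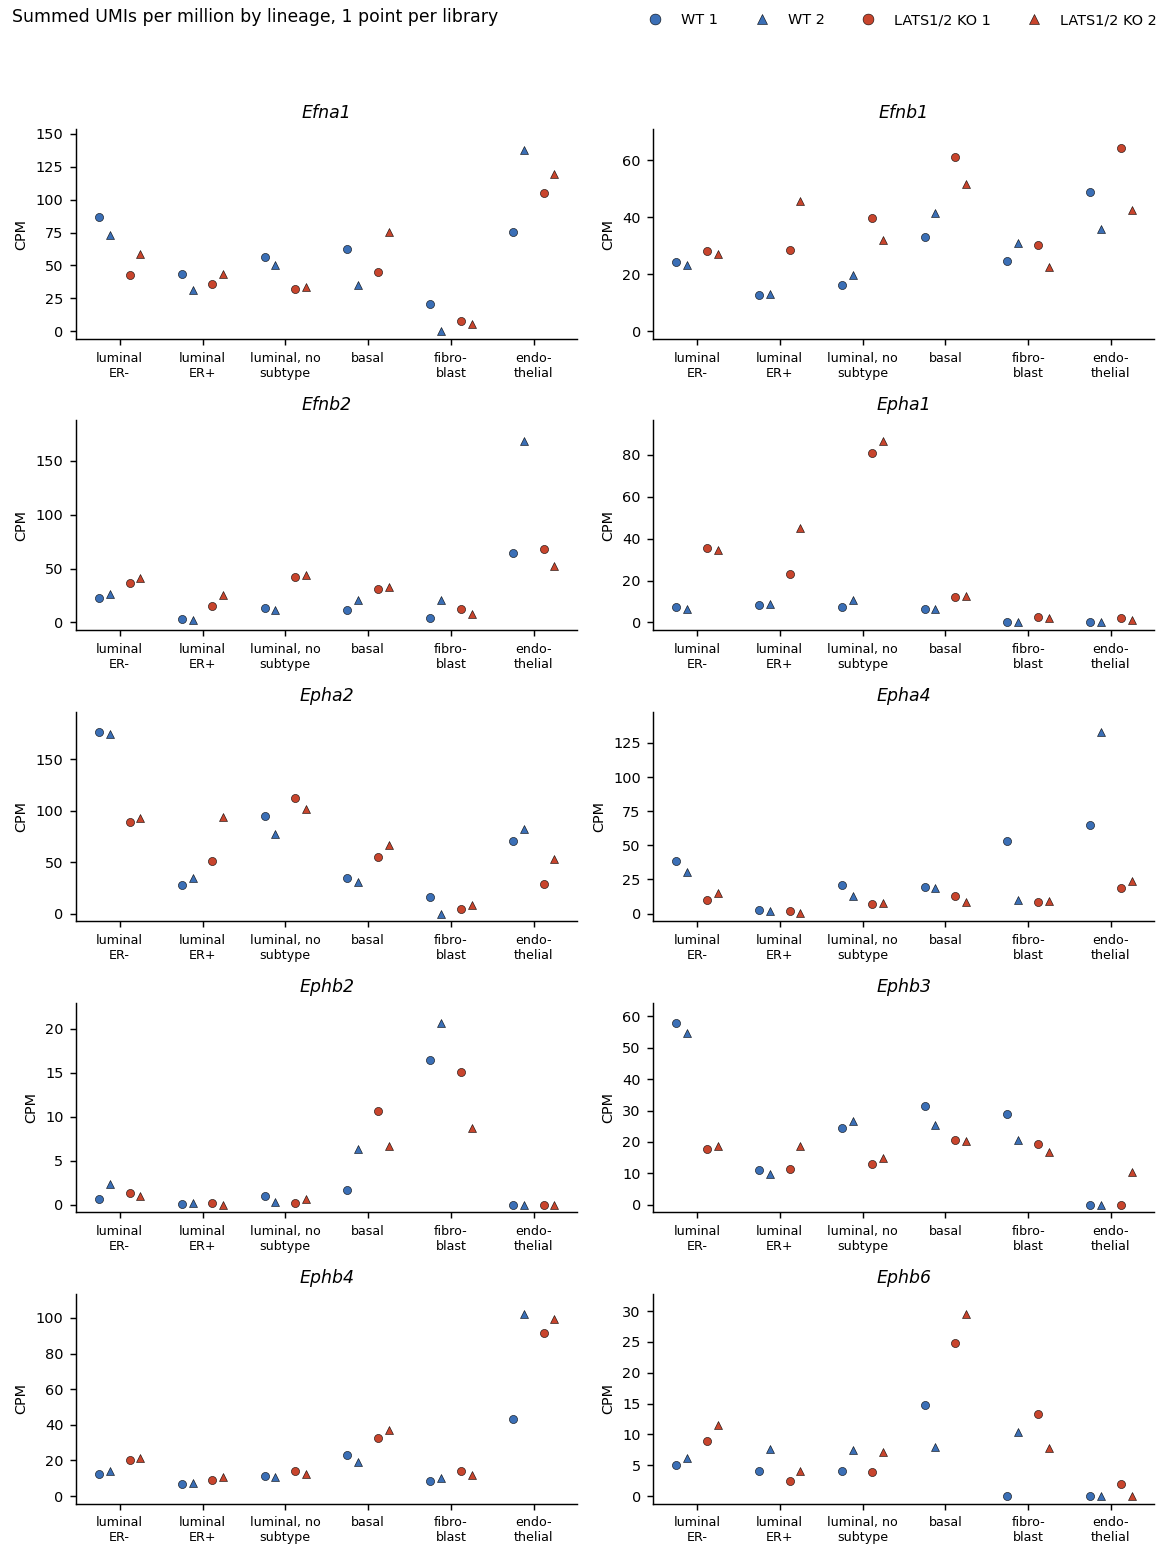
Level of each of the 10 genes (CPM, y axis) in 6 classes of cells (x axis), with 1 point per library, WT and LATS1/2 KO in separate colours. In luminal ER- cells Epha1 was below 10 CPM in both WT libraries and above 30 CPM in both LATS1/2 KO libraries, while Epha2 was near 175 CPM in WT and near 90 CPM in LATS1/2 KO.

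In luminal ER- cells, deletion of Lats1 and Lats2 was accompanied by a fall of 4 genes, Ephb3, Epha4, Epha2 and Efna1, and by a rise of Epha1. In the study's own clustering, epithelial cells of the genotypes fell largely into separate clusters in the luminal ER-, luminal ER+ and basal lineages, so within each marker gate here a change in the kind of cell and a change within like cells cannot be told apart. This made 5 of 10 genes called, where 55.0% of all genes were called (28.3% higher and 26.7% lower), so the number of changed genes was near the background. The median of the 10 was -0.41 on the log2 scale, against 0.01 over all genes. TMM scaling and library totals differed by 0.34 at the median gene in this comparison. With library totals alone 8 of the 10 genes passed, 4 higher and 4 lower, because Efnb2 (0.68), Ephb4 (0.66) and Ephb6 (0.88) were then called higher. Over all genes, 3760 were higher and 3545 lower with TMM factors, and 6117 and 2027 with library totals.

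Ephb3 was 57.7 and 54.7 CPM in WT and 17.8 and 18.8 CPM in LATS1/2 KO luminal ER- cells, with no overlap between the groups (log2 -1.96 ± 0.10, adjusted p = 2.26e-05). Epha4 was 38.8 and 30.7 CPM in WT and 9.74 and 15.4 CPM in LATS1/2 KO (log2 -1.80 ± 0.21, adjusted p = 0.000475). Epha2 was 176 and 175 CPM in WT and 89.2 and 92.6 CPM in LATS1/2 KO (log2 -1.29 ± 0.09, adjusted p = 6.05e-05). All 3 receptors that set WT luminal ER- cells apart from luminal ER+ and basal cells thus had lower values in both LATS1/2 KO mice than in either WT mouse. The ligand of Epha2, Efna1, was 87.2 and 73.0 CPM in WT and 42.8 and 59.0 CPM in LATS1/2 KO (log2 -0.99 ± 0.16, adjusted p = 0.00208).

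Epha1 moved the other way. This receptor for A-type ephrins was 7.59 and 6.65 CPM in WT luminal ER- cells and 35.6 and 34.5 CPM in those of LATS1/2 KO (log2 1.96 ± 0.12, adjusted p = 3.98e-05). The share of luminal ER- cells with at least 1 Epha1 UMI was 6.47% and 6.41% in WT against 22.5% and 22.1% in LATS1/2 KO. With every cell thinned to 2000 UMIs, which kept 2893 of 3014 and 2135 of 2185 cells in WT and 1480 of 1557 and 1628 of 1711 cells in LATS1/2 KO, the shares were 1.42% and 1.22% against 5.88% and 6.27%. Macrophages, which should lack this epithelial receptor, had shares of 0.56% and 2.08% in LATS1/2 KO, and 0.63% and 1.79% after thinning. Their cells held medians of 4330 and 3833 UMIs, beside 7389 and 7882 in luminal ER- cells of LATS1/2 KO.

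The B-type ligands were less clear in this lineage. Efnb2 was 22.4 and 26.5 CPM in WT and 36.4 and 41.5 CPM in LATS1/2 KO luminal ER- cells, groups that did not overlap, but the scaled difference of 0.33 ± 0.12 missed the threshold (adjusted p = 0.0525). It passed with no low-count filter (0.0364) and without LATS1/2 KO 1 (0.0394). Efnb1 was 24.3 and 23.2 CPM against 28.0 and 26.9 CPM, and its log2 difference was -0.13 ± 0.10 with TMM factors and 0.21 with library totals, neither past the threshold. Ephb4, Ephb6 and Ephb2 gave 0.32 ± 0.12, 0.54 ± 0.20 and -0.69 ± 0.60. Ephb6 likewise passed with no low-count filter, with the stricter gate and without LATS1/2 KO 1 (adjusted p from 0.0186 to 0.0466), Ephb4 with the stricter gate and without the 5% deepest cells (0.0324 and 0.027), and Ephb2 without WT 1 (-1.38, 0.0386). The keratin and smooth muscle genes of the basal marker list moved beside these values, with a sum of 40.2 and 28.9 CPM in WT and 893 and 626 CPM in LATS1/2 KO luminal ER- cells, and their part in the differences was not tested.

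In luminal ER+ cells 4 genes rose, Efnb2, Epha1, Efnb1 and Epha2, and none passed as lower, although Ephb6 did without WT 1 (-1.37, adjusted p = 0.0463). These were 4 of the 9 genes that passed the low-count filter (Ephb2 did not), where 29.5% of all genes were called (15.6% higher and 13.9% lower), and the median of the 9 was 0.38 against -0.01 over all genes. The LATS1/2 KO values rested on 496 and 160 cells, against 1250 and 894 in WT.

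Efnb2 was 3.54 and 2.57 CPM in WT and 15.0 and 25.1 CPM in LATS1/2 KO luminal ER+ cells (log2 2.59 ± 0.32, adjusted p = 0.00334). The gene that was nearly absent from WT luminal ER+ cells was thus several-fold higher in both LATS1/2 KO mice, on 66 and 43 UMIs. Epha1 was 8.28 and 9.03 CPM against 23.1 and 45.0 CPM (log2 1.85 ± 0.30, adjusted p = 0.00727). Efnb1 was 12.8 and 13.0 CPM against 28.4 and 45.6 CPM (log2 1.41 ± 0.22, adjusted p = 0.00689). Epha2 was 27.9 and 34.3 CPM against 51.0 and 94.1 CPM (log2 1.11 ± 0.26, adjusted p = 0.0236). For each of the 4 genes both LATS1/2 KO libraries exceeded both WT libraries, and LATS1/2 KO 2 was the higher of the pair.

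Efna1, Ephb3 and Ephb4 gave 0.01 ± 0.20, 0.38 ± 0.26 and 0.36 ± 0.22 in luminal ER+ cells, and Epha4 and Ephb6 gave -0.78 ± 0.59 and -0.99 ± 0.46, none past the threshold. The basal marker list summed to 37.1 and 26.4 CPM in WT and to 432 and 630 CPM in LATS1/2 KO luminal ER+ cells, with Cnn1, Oxtr and Trp63 at 0 in LATS1/2 KO 2. Its part in these differences was not tested.

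**Figure D2:**
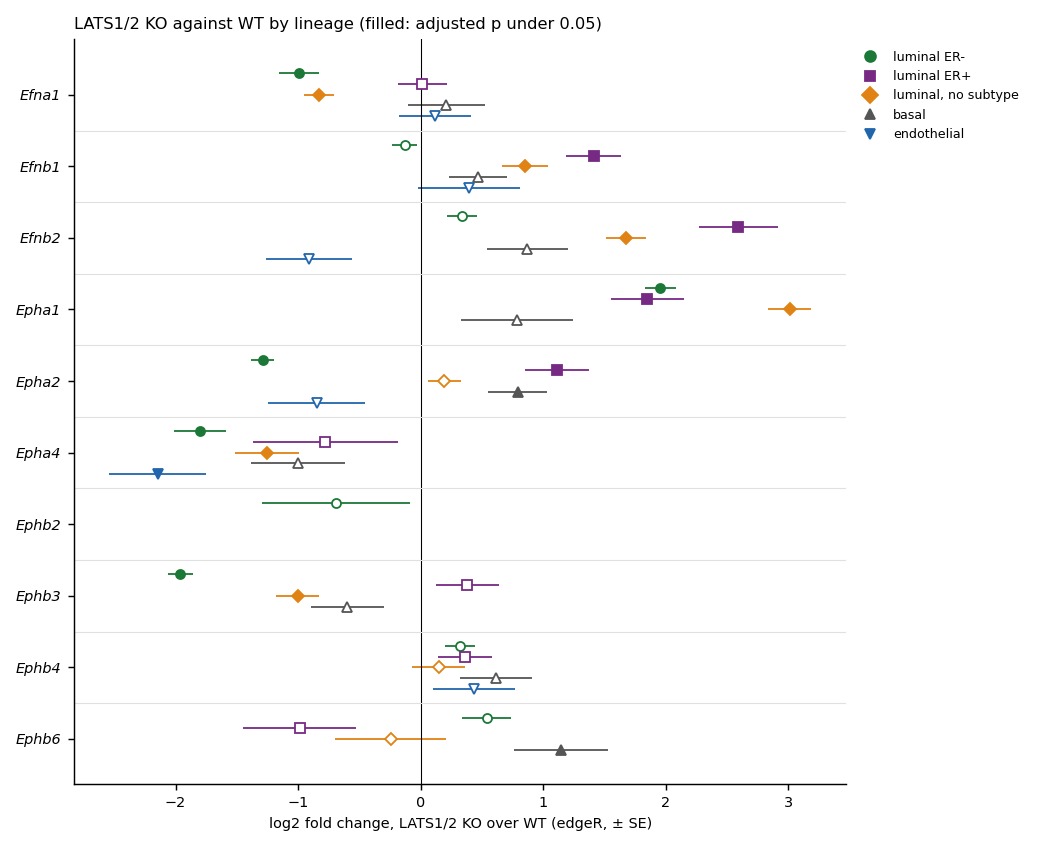
Log2 fold change of LATS1/2 KO over WT (x axis, edgeR estimate ± SE, n = 2 mice per group) for each gene (y axis) in each lineage, with filled symbols where the adjusted p was under 0.05. Epha2 and Ephb3 lie far to the left in luminal ER- cells (-1.29 and -1.96) and to the right of 0 in luminal ER+ cells (1.11 and 0.38).

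Whether the effect of the deletion differed between the subtypes was tested directly as an interaction, with the luminal ER- effect minus the luminal ER+ effect. Of the 10 genes, 6 passed, 5 of them lower and 1 higher, where 18.6% of all genes were called (10.2% lower and 8.34% higher). The difference was -2.38 ± 0.22 for Epha2 (adjusted p = 0.000161), -2.34 ± 0.24 for Ephb3 (adjusted p = 0.000251) and -2.25 ± 0.29 for Efnb2 (adjusted p = 0.000904). For Efnb1 and Efna1 it was -1.53 ± 0.23 and -1.08 ± 0.16. Epha2 therefore fell in luminal ER- cells and rose in luminal ER+ cells, and the values of the subtypes, far apart in WT, came to 89.2 and 92.6 CPM against 51.0 and 94.1 CPM in LATS1/2 KO. Epha1 rose in both subtypes, and its difference of 0.14 ± 0.30 did not pass (adjusted p = 0.803). Epha4, Ephb4 and Ephb2 gave -1.22 ± 0.61, -0.06 ± 0.24 and -0.34 ± 1.71, none past the threshold. Ephb6 gave 1.42 ± 0.39 (adjusted p = 0.0334), with an adjusted p of 0.16 by DESeq2. Library totals shifted the median of all genes by 0.30 here. They also turned the split of all calls from 1148 higher and 1406 lower to 2819 and 854.

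A class of luminal cells had no subtype, since neither subtype score both reached the required minimum of 0.4 and led by the required margin of 0.2. It thus took in cells with low scores for both subtypes and cells with scores too close to each other. It made up 2.87% and 3.75% of luminal cells in WT and 34.9% and 34.7% in LATS1/2 KO. The cells of this class differed in kind between the genotypes: in WT they carried both subtype lists (6205 and 6068 CPM of luminal ER- markers and 3544 and 3386 CPM of luminal ER+ markers), whereas in LATS1/2 KO these sums were 788 and 730 CPM and 246 and 188 CPM. Basal markers summed to 43.6 and 20.4 CPM in WT and to 3347 and 2701 CPM in LATS1/2 KO, mostly from Krt14, a keratin of basal cells, at 3057 and 2328 CPM. A comparison within this class, added after the data were seen, is therefore one of unlike cells. In WT they were also deeper, with medians of 16450 and 21118 UMIs against 6832 and 8050 in luminal ER- and 12254 and 15749 in luminal ER+ cells. Doublets of the subtypes would carry both lists too, and their part in the WT values was not tested.

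Epha1 had its highest levels of any lineage in the LATS1/2 KO cells without a subtype, at 81.0 and 86.7 CPM, against 7.60 and 10.9 CPM in WT (log2 3.01 ± 0.18, adjusted p = 1.02e-05). Efnb2 was 42.1 and 44.4 CPM against 13.7 and 11.3 CPM (log2 1.67 ± 0.16, adjusted p = 0.00011). In all, 6 of 9 genes tested were called, 3 higher and 3 lower, where 55.4% of all genes were called (28.9% higher and 26.5% lower). Efnb1 rose by 0.85 ± 0.19, and Efna1, Ephb3 and Epha4 gave -0.83 ± 0.12, -1.01 ± 0.17 and -1.25 ± 0.26. Epha2, Ephb4 and Ephb6 gave 0.19 ± 0.13, 0.15 ± 0.22 and -0.25 ± 0.45 and did not pass. The directions of these 6 were those seen in one or the other luminal subtype.

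The EYFP reporter marks cells in which Cre has acted, and it was used to divide the luminal cells of LATS1/2 KO. Cells with at least 1 EYFP UMI were 22.6% and 29.5% of luminal cells in LATS1/2 KO 1 and 2 and 0.30% and 0.44% in WT. EYFP-positive cells were deeper, with medians of 13610 and 15120 UMIs against 7356 and 7307 UMIs in EYFP = 0 cells, and an EYFP = 0 cell can be a recombined cell whose reporter mRNA was not captured. They also held unequal shares of the subtypes, as 40.7% and 54.0% of cells without a subtype, 13.3% and 15.4% of luminal ER- cells and 11.9% and 28.1% of luminal ER+ cells were EYFP-positive. Lats1 was 10.4 and 11.3 CPM in EYFP-positive cells and 17.8 and 20.2 CPM in EYFP = 0 cells (log2 -0.82 ± 0.12, adjusted p = 8.03e-05, paired within mouse). Lats2 was 28.3 and 30.0 CPM against 27.4 and 30.4 CPM, a difference of 0.0013 that did not pass (adjusted p = 0.992).

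Within LATS1/2 KO luminal cells, Epha1 was 76.8 and 82.3 CPM in EYFP-positive cells and 40.6 and 37.7 CPM in EYFP = 0 cells (log2 1.01 ± 0.08, adjusted p = 2.04e-07). It was the only one of the 10 genes whose call held under every alternative tested for this comparison. Epha2 (0.24 ± 0.08, adjusted p = 0.0305), Efna1 (-0.31 ± 0.09, adjusted p = 0.0181) and Ephb4 (-0.60 ± 0.13, adjusted p = 0.00174) also passed. The calls thus comprised 4 of 10 genes, 2 in each direction, where 39.8% of all genes were called (19.4% higher and 20.4% lower). Efnb1, Ephb3, Epha4, Ephb6 and Ephb2 gave 0.19 ± 0.10, -0.20 ± 0.12, -0.26 ± 0.15, -0.29 ± 0.16 and -0.80 ± 0.47, none past the threshold. Epha2 turned to -0.093 in luminal ER- cells alone, and Efna1 to 0.028 in cells without a subtype alone, neither past the threshold. Without the 5% deepest cells 5 genes were called, 4 higher and 1 lower, with Efnb1 (0.30, adjusted p = 0.0402) and Efnb2 (0.28, 0.0391) gained and Efna1 lost (0.0566). RLE factors and library totals each gave 3 higher and 2 lower, with Efnb2 gained (0.0463 and 0.0345).

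**Figure D3:**
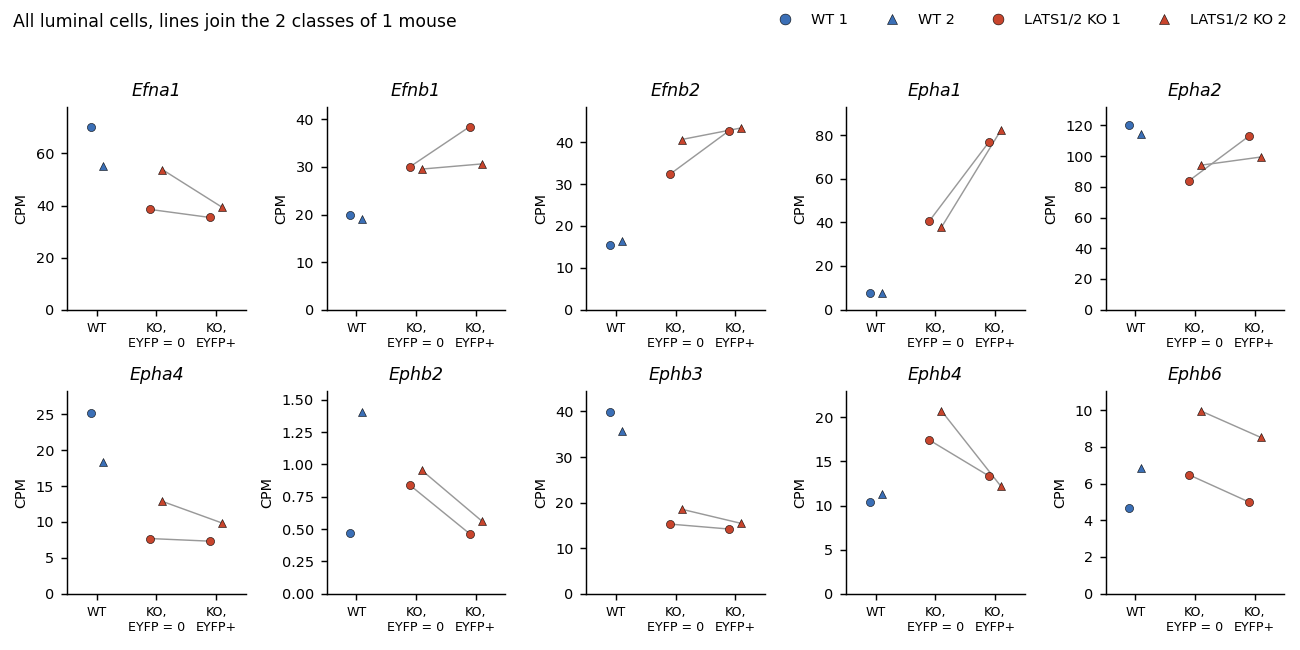
Level of each gene (CPM, y axis) in all luminal cells of WT and in the EYFP = 0 and EYFP-positive luminal cells of LATS1/2 KO (x axis), 1 point per library, with a line between the classes of each LATS1/2 KO mouse. Epha1 stepped up from below 8 CPM in WT to near 40 CPM in EYFP = 0 cells and near 80 CPM in EYFP-positive cells, whereas Ephb3 fell from above 35 CPM to below 19 CPM in both LATS1/2 KO classes.

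The EYFP = 0 luminal cells of LATS1/2 KO also differed from WT luminal cells. These pools held unlike mixtures of the luminal classes. Cells without a subtype were 652 of 2439 and 458 of 2021 EYFP = 0 cells, against 126 of 4390 and 120 of 3199 WT luminal cells. Luminal ER+ cells were 437 and 115 of the EYFP = 0 cells, against 1250 and 894 of the WT cells. The part of this mixture in the differences was not tested. Of the 10 genes, 4 were higher and 4 lower, where 50.2% of all genes were called (26.2% higher and 24.0% lower). Epha1 was 7.84 and 7.85 CPM in all WT luminal cells and 40.6 and 37.7 CPM in the EYFP = 0 cells (log2 2.11 ± 0.11, adjusted p = 0.000228). Efnb2 was 15.4 and 16.3 CPM against 32.3 and 40.7 CPM (log2 0.99 ± 0.13, adjusted p = 0.00287). Ephb3 was 39.9 and 35.6 CPM against 15.3 and 18.5 CPM (log2 -1.38 ± 0.13, adjusted p = 0.00113). Ephb4 (0.60 ± 0.13) and Efnb1 (0.40 ± 0.10) were the other genes called higher, and Epha4 (-1.31 ± 0.28), Efna1 (-0.66 ± 0.19) and Epha2 (-0.61 ± 0.10) the other genes called lower. Ephb6 and Ephb2 did not pass (adjusted p = 0.406 and 0.722). Efna1 was lost with library totals (adjusted p = 0.102), and without WT 1 only 5 of the 8 remained past the threshold, with Efna1, Efnb1 and Ephb4 lost.

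The EYFP-positive cells were set against the same WT libraries in a comparison added after the data were seen, so the pair of comparisons share their controls. Cells without a subtype were 447 of 713 and 537 of 845 EYFP-positive luminal cells, so the mixtures compared were again unlike. Their part in the differences was not tested. In this comparison 7 of 10 genes passed, where 63.9% of all genes were called (31.9% higher and 32.0% lower). Epha1 gave 3.13 ± 0.09 (adjusted p = 2.19e-05), Efnb2 1.23 ± 0.08 (adjusted p = 0.000157) and Efnb1 0.61 ± 0.13 (adjusted p = 0.00902). The lower genes were Ephb3 (-1.56 ± 0.11), Epha4 (-1.55 ± 0.22), Efna1 (-0.96 ± 0.14) and Epha2 (-0.36 ± 0.10), of which Epha2 was lost with library totals (adjusted p = 0.205), without WT 1 (0.0911) and without LATS1/2 KO 2 (0.0985). Efnb1 was lost without WT 2 (adjusted p = 0.0566), and Ephb2, which gave -1.04 ± 0.68, passed without WT 1 (0.0463). Ephb6 gave 0.04 ± 0.30. Ephb4 gave 0.02 ± 0.12 in EYFP-positive cells, at 13.3 and 12.2 CPM, beside 17.4 and 20.8 CPM in EYFP = 0 cells. Efnb2 was 42.8 and 43.4 CPM in EYFP-positive cells, and its difference from EYFP = 0 cells of 0.23 ± 0.09 missed the threshold (adjusted p = 0.0601).

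The step between EYFP classes was also read within each luminal class. For luminal ER+ cells, whose sums held 59 and 45 EYFP-positive cells, no test of it was run and the values are a description. Efnb2 was 10.7 and 14.9 CPM in the EYFP = 0 and 38.0 and 45.9 CPM in the EYFP-positive luminal ER+ cells of LATS1/2 KO 1 and 2. Epha2 was 37.3 and 54.2 CPM against 126 and 175 CPM. Epha1 was 16.9 and 25.4 CPM against 57.0 and 84.7 CPM. In luminal ER- cells, by contrast, Efnb2 was 36.1 and 40.6 CPM against 37.4 and 44.0 CPM and Epha2 89.7 and 93.9 CPM against 87.2 and 88.8 CPM. Epha1 was higher in the EYFP-positive cells of both mice in each of the 3 luminal classes.

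**Figure D4:**
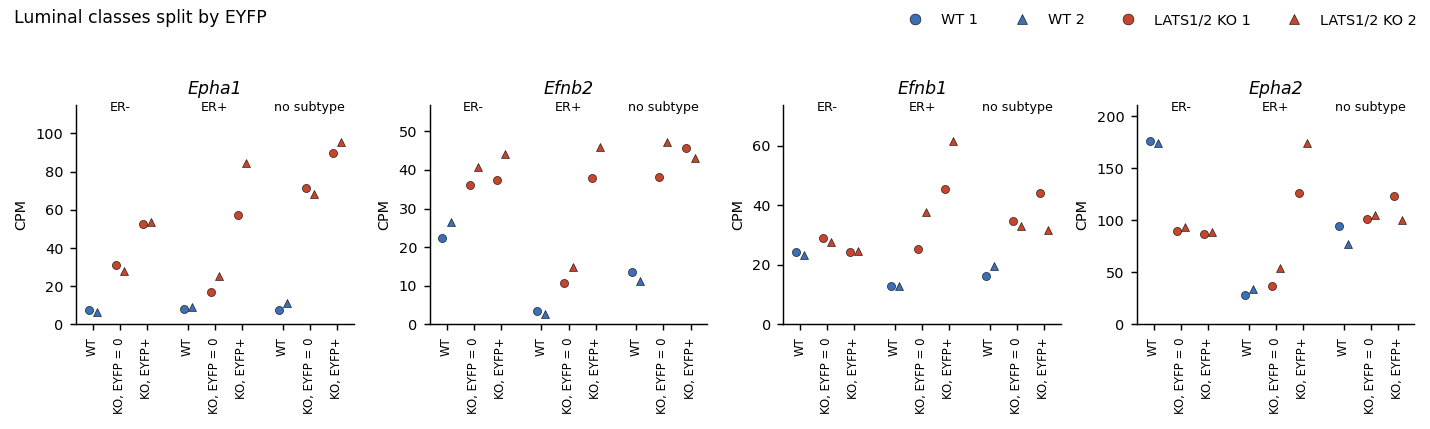
Levels (CPM, y axis) of 4 genes in the luminal classes, each divided into WT, EYFP = 0 and EYFP-positive cells of LATS1/2 KO (x axis), 1 point per library. In luminal ER+ cells Epha2 reached 126 and 175 CPM in the EYFP-positive cells of LATS1/2 KO, against 27.9 and 34.3 CPM in all WT luminal ER+ cells.

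Basal cells express little Krt8, and EYFP there was 4.26 and 9.30 CPM in LATS1/2 KO. Epha2 was 34.6 and 30.3 CPM in WT and 54.7 and 66.7 CPM in LATS1/2 KO basal cells (log2 0.79 ± 0.24, adjusted p = 0.026). Ephb6, a receptor that lacks kinase activity, was 14.8 and 7.97 CPM against 24.9 and 29.5 CPM (log2 1.14 ± 0.38, adjusted p = 0.0409). These were 2 of the 9 genes tested, both higher, where 31.4% of all genes were called (16.1% higher and 15.3% lower), and DESeq2 called neither (adjusted p = 0.233 and 0.273). The calls were also sensitive to single libraries: Epha2 was lost without WT 1, WT 2 or LATS1/2 KO 2, and Ephb6 without WT 2 or LATS1/2 KO 2. With the stricter gate Ephb6 was lost (adjusted p = 0.068) and Epha4 was called lower (-1.06, 0.0463), and with equal sums Epha4 was also called lower (-1.40, 0.0281).

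Of the remaining genes in basal cells, Efnb2 was 11.5 and 20.7 CPM against 31.3 and 33.1 CPM (0.87 ± 0.33, adjusted p = 0.0643), and Epha4 was 19.8 and 19.1 CPM against 12.8 and 8.79 CPM (-1.0 ± 0.38, adjusted p = 0.0685). Neither pair of groups overlapped, and neither difference passed the test. Efnb2 passed with library totals (adjusted p = 0.0383) and with no low-count filter (0.0212). Epha1, Ephb4, Efnb1, Efna1 and Ephb3 gave 0.79 ± 0.46, 0.61 ± 0.29, 0.47 ± 0.24, 0.21 ± 0.32 and -0.60 ± 0.30, none past the threshold. Epithelial markers led by Krt8 and Epcam summed to 1252 and 1104 CPM in WT and 3408 and 2681 CPM in LATS1/2 KO basal cells, and their part in these values was not tested.

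In endothelial cells 1 gene of the 6 tested changed, Epha4, where 9.80% of all genes were called (4.34% higher and 5.46% lower). It was 64.9 and 133 CPM in WT and 18.9 and 24.1 CPM in LATS1/2 KO (log2 -2.15 ± 0.40, adjusted p = 0.0013). The call was lost without WT 2 (-1.56, adjusted p = 0.0733), the library with the higher level, with sums thinned to equal size (adjusted p = 0.0512) and with no low-count filter (0.196). Efnb2 was 64.9 and 169 CPM against 68.1 and 52.0 CPM (-0.91 ± 0.35, adjusted p = 0.114), so that the difference lay in WT 2 alone, and without WT 1 it passed (-1.41, adjusted p = 0.00138). Ephb4 was 43.3 and 102 CPM against 91.7 and 99.1 CPM (0.43 ± 0.34, adjusted p = 0.482). Epha2, Efna1 and Efnb1 gave -0.85 ± 0.39, 0.12 ± 0.30 and 0.39 ± 0.42 (adjusted p = 0.206, 0.866 and 0.632).

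The mixture of vessels differed between these libraries. Cells with at least 3 of 6 arterial markers were 10 of 37 and 17 of 34 in WT and 21 of 221 and 14 of 213 in LATS1/2 KO, and those with at least 3 of 5 venous markers were 14 and 9 in WT and 118 and 111 in LATS1/2 KO. Within the arterial cells Efnb2 was 56.0 and 242 CPM in WT and 262 and 220 CPM in LATS1/2 KO, on 3, 23, 32 and 15 UMIs. Within the venous cells it was 29.8 and 45.7 CPM against 37.4 and 30.8 CPM. The groups overlapped within each kind of vessel. Epha4 in venous cells was 49.7 and 61.0 CPM against 16.5 and 17.6 CPM, and in arterial cells 93.3 and 221 CPM against 40.9 and 73.3 CPM. These values rested on 5, 4, 11 and 12 UMIs in venous and on 5, 21, 5 and 5 UMIs in arterial cells of WT 1, WT 2, LATS1/2 KO 1 and LATS1/2 KO 2, and no test was run on them.

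Ephb4 in the venous cells was 49.7 and 198 CPM in WT and 89.8 and 107 CPM in LATS1/2 KO. In the arterial cells it was 37.3 and 10.5 CPM in WT and 73.6 and 103 CPM in LATS1/2 KO. The arterial values rested on 2, 1, 9 and 7 UMIs and the venous values on 5, 13, 60 and 73 UMIs, so no order is read from them, and the marker sets can overlap. Epithelial markers summed to 373 and 281 CPM in WT and 1184 and 589 CPM in LATS1/2 KO endothelial cells, while the endothelial list was 6274 and 5976 CPM against 6015 and 5716 CPM. Epha1 was 0 in both WT endothelial sums, below a floor of 16.2 and 15.3 CPM set by 3 counts, and 1.89 and 0.96 CPM in LATS1/2 KO, where free RNA alone would give 3.55 and 2.02 CPM.

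**Figure D5:**
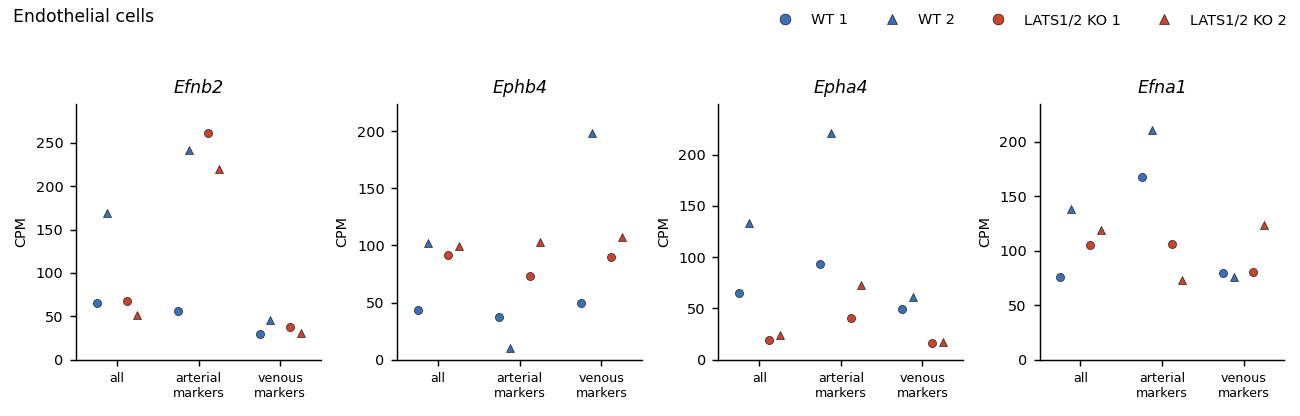
Levels (CPM, y axis) of 4 genes in all endothelial cells and in those with at least 3 arterial or venous markers (x axis), 1 point per library. Efnb2 was above 200 CPM in the arterial cells of 3 libraries and below 46 CPM in the venous cells of all 4.

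In fibroblasts 5 of the 10 genes passed the low-count filter and none was called by edgeR or DESeq2, with 0 of the 5 at an unadjusted p under 0.05. Of all genes, 5.34% were called (2.60% higher and 2.74% lower). Their log2 differences were -0.57 for Ephb2, -0.45 for Ephb3, 0.06 for Efnb1, 0.16 for Efnb2 and 0.62 for Ephb4, with adjusted p from 0.697 to 0.998. Ephb2, a receptor for B-type ephrins, was 16.5 and 20.6 CPM in WT and 15.1 and 8.69 CPM in LATS1/2 KO, on 4, 2, 25 and 41 UMIs. The class pools every cell that passed the fibroblast markers. The study separated several kinds of fibroblast, some with too few control cells for its own analysis. They were not separated here, so for each gene in fibroblasts a change within cells and a change in their mixture cannot be told apart. The WT sums came from only 58 and 23 fibroblasts, and the size of difference that could be detected with them was not tested.

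Of the 12 other ephrin and Eph genes, Efna4 stood out in the luminal cells. This A-type ligand was 2.58 and 3.21 CPM in WT and 26.0 and 26.9 CPM in LATS1/2 KO luminal ER- cells (log2 2.86 ± 0.16, adjusted p = 2.44e-05). It also rose in luminal ER+ cells (1.43 ± 0.16, adjusted p = 0.00263), and the rise was larger in luminal ER- cells by 1.42 ± 0.23 (adjusted p = 0.00275). In WT it had been lower in luminal ER- than in luminal ER+ cells, with a difference of -1.45 ± 0.22. Its fold changes were 1.71 in cells without a subtype, 2.15 in EYFP = 0 cells and 2.38 in EYFP-positive cells against WT, each on the log2 scale.

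In every comparison of LATS1/2 KO with WT that called it, Efna2 was lower. It was 54.4 and 46.3 CPM in WT and 2.84 and 5.69 CPM in LATS1/2 KO basal cells (log2 -3.58 ± 0.37, adjusted p = 3.75e-05), and 61.7 and 72.3 CPM against 6.65 and 14.6 CPM in the pooled fibroblasts (-2.38 ± 0.52, adjusted p = 0.0239). In luminal ER- and luminal ER+ cells it gave -1.85 ± 0.41 (adjusted p = 0.00749) and -1.61 ± 0.39 (adjusted p = 0.0259). The call in luminal ER+ cells was lost with DESeq2 (adjusted p = 0.118) and without either WT mouse or LATS1/2 KO 1, and that in fibroblasts without either WT mouse (adjusted p = 0.365 and 0.175) or LATS1/2 KO 1 (0.0779). EYFP-positive cells had less of it than EYFP = 0 cells (-1.25 ± 0.36, adjusted p = 0.0132), a call lost with DESeq2 (0.273), with no mouse block (0.209) and in luminal ER- cells only (-0.70, 0.32). Against WT, the values were -1.69 in EYFP = 0 cells, -2.86 in EYFP-positive cells and -3.02 in cells without a subtype.

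Epha7 fell in basal cells, from 24.7 and 23.9 CPM to 6.40 and 7.75 CPM (log2 -1.87 ± 0.37, adjusted p = 0.00274), and in luminal ER- cells (-1.03 ± 0.14). It also fell in cells without a subtype (-1.24 ± 0.36), a call lost without any 1 of the 4 mice. That call was lost too with DESeq2 (adjusted p = 0.0657) and without the 5% deepest cells (-0.97, 0.0668). Epha7 was lower in EYFP-positive cells than in EYFP = 0 cells (-1.28 ± 0.21) and than in WT (-1.78 ± 0.22). The call between EYFP classes was lost with every cell thinned to 2000 UMIs (adjusted p = 0.106), in cells without a subtype only (-0.69, 0.326) and with no mouse block (0.0508). Efna5 was 37.9 and 30.7 CPM in WT and 1.89 and 2.89 CPM in LATS1/2 KO endothelial cells (-3.68 ± 0.67, adjusted p = 0.00108), a call lost with no low-count filter (0.13), and DESeq2 gave no adjusted p for it. The floor set by 3 counts was 2.84 CPM in LATS1/2 KO 1 and 2.89 CPM in LATS1/2 KO 2, so the size of this fall is not well determined. The part of the unlike vessel mixture in it was not tested. Against WT luminal cells, Efna5 was higher by 0.61 in EYFP = 0 cells and 0.42 in EYFP-positive cells, and in cells without a subtype it rose by 0.68. It gave 0.04 ± 0.11 in luminal ER- cells (adjusted p = 0.752) and 0.81 ± 0.33 in luminal ER+ cells (adjusted p = 0.114), neither past the threshold. The calls in EYFP = 0 and EYFP-positive cells were lost without WT 2 (adjusted p = 0.0874 and 0.176), and the latter also without LATS1/2 KO 2 (0.148). The difference of Efna3 in luminal ER- cells, 1.30 ± 0.42, started from levels below 1 CPM in WT, and its call was lost with DESeq2 (adjusted p = 0.201), without either WT mouse and without LATS1/2 KO 2. Epha3 in fibroblasts was 103 and 20.6 CPM in WT and 15.1 and 13.8 CPM in LATS1/2 KO (-2.27 ± 0.51, adjusted p = 0.0285), with the gap in WT 1 alone, since without it the value was -0.23 (adjusted p = 0.945).

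Between WT lineages, Ephb1 was higher in basal than in luminal ER- cells, at 29.7 and 27.1 CPM against 0.07 and 0.09 CPM (log2 8.10 ± 0.62, adjusted p = 5.98e-07). Basal cells were also higher than luminal ER- cells in Efna3 (3.65), Efnb3 (3.35), Efna2 (2.93) and Efna4 (2.80), and lower in Efna5 (-0.73), which was lost with library totals (adjusted p = 0.104) and DESeq2 (0.069). In all, 5 of 7 tested relatives were higher in basal cells and 1 lower, where 15.7% of all genes were higher and 19.3% lower. Luminal ER- cells exceeded luminal ER+ cells in Efna5 (4.06) and Epha7 (3.46) and had less Efna3 (-1.80) and Efna4 (-1.45).

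A list of 31 genes whose products act with Eph receptors or ephrins, such as exchange factors, adaptors and Src-family kinases, was read beside the family. In luminal ER- cells 9 of the 30 tested rose and 7 fell, so the list was called about as often as all genes, and its median was 0.21 against 0.01. The largest rises were Vav3, an exchange factor (2.59 ± 0.28, adjusted p = 0.000297), and Sipa1l1 (2.39 ± 0.16, adjusted p = 4.62e-05). The largest falls were the kinase Lyn (-1.20 ± 0.15, adjusted p = 0.000541) and the ephrin-B adaptor Grip1 (-0.99 ± 0.31, adjusted p = 0.031), of which Grip1 was lost with library totals (0.111), without WT 1 (0.252) and without LATS1/2 KO 2 (0.111). In luminal ER+ cells 6 of 29 rose and 1 fell, where 15.6% of all genes rose and 13.9% fell, led by Grb10 (2.15 ± 0.57) and Adam10, a protease that sheds ephrins (1.02 ± 0.11), with Tiam1 the gene that fell (-1.78 ± 0.51). The calls of Grb10 and Tiam1 were lost with DESeq2 (adjusted p = 0.0833 and 0.227), and without LATS1/2 KO 1 Grb10 gave 0.94 (0.502). Without any 1 of the 4 mice Tiam1 was lost.

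The interaction of genotype and subtype was called for 7 of 31 partners, 3 higher and 4 lower, where 18.6% of all genes were called (8.34% higher and 10.2% lower). Vav3 (2.80 ± 0.31) and Sipa1l1 (2.43 ± 0.24) rose in luminal ER- relative to luminal ER+ cells, and Grb10 (-1.66 ± 0.50) and Lyn (-0.87 ± 0.21) went the other way. Grb10 and Lyn were lost with DESeq2 (adjusted p = 0.235 and 0.0587), and without LATS1/2 KO 1 Grb10 gave -0.44 (0.809). In WT, Vav3 (-3.58) and Sipa1l1 (-2.92) had been lower in luminal ER- than in luminal ER+ cells, while Chn2 (3.79) and Grip1 (3.55) had been higher, among 15 partners higher and 9 lower of 30 (28.9% and 31.5% of all genes). WT basal cells had more Vav3 (4.92) and Fyn (2.66) and less Grb10 (-3.52) and Lyn (-3.20) than luminal ER- cells, with 4 of 30 higher and 7 lower (15.7% and 19.3% of all genes).

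In basal cells 3 of 21 partners rose with deletion and none fell, a smaller share than the 31.4% called over all genes (16.1% higher). They were the kinase Abl2 (3.16 ± 0.30, adjusted p = 1.80e-05), Sipa1l1 (3.05 ± 0.55) and the ephrin-B binding scaffold Sdcbp (0.57 ± 0.16). Abl2 was also the 1 partner of 21 that rose in fibroblasts (2.65 ± 0.53, adjusted p = 0.0164), where 2.60% of all genes rose, a call lost without WT 1 or WT 2 (0.323 and 0.139). In endothelial cells neither edgeR nor DESeq2 called any of 21, where edgeR called 9.80% of all genes, with 8 at an unadjusted p under 0.05. Sdcbp in basal cells was lost with DESeq2 (0.184) and without WT 1, WT 2 or LATS1/2 KO 1.

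Across the EYFP classes of LATS1/2 KO, 2 of 30 partners were higher in EYFP-positive cells, Fyn (0.72 ± 0.15) and Sipa1l1 (0.29 ± 0.10), and 10 were lower, led by the Rac regulators Chn2 (-1.89 ± 0.25) and Tiam1 (-0.94 ± 0.21). Of all genes 39.8% were called (19.4% higher and 20.4% lower). With every cell thinned to 2000 UMIs none of these 4 passed, and Chn2 gave -0.61 (adjusted p = 0.687) and Fyn 0.46 (0.651). DESeq2 called 4 of the 30. The EYFP = 0 cells had more Fyn (1.91) and Chn2 (1.51) and less Ngef (-1.13) and Lyn (-0.79) than WT luminal cells, with 10 of 31 higher and 5 lower (26.2% and 24.0% of all genes). The EYFP-positive cells, against the same WT libraries, had more Fyn (2.65) and Arhgef15 (1.54) and less Ngef (-1.97) and Tiam1 (-1.40), with 11 higher and 11 lower (31.9% and 32.0% of all genes). Arhgef15 was lost without any 1 of the 4 mice and with DESeq2 (adjusted p = 0.185). In cells without a subtype 8 of 29 rose, led by Fyn (3.01) and Grb10 (1.68), and 9 fell, led by Ngef (-2.08) and Nck2 (-1.27), where 28.9% of all genes rose and 26.5% fell.

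Over 31 sums of library and lineage, the genes whose log2 levels followed Efnb2 most closely among 8807 genes were Cd59a (Pearson r = 0.88), Foxc1 (0.87) and Synpo (0.87). For Epha2 they were F11r (0.86), Mmp15 (0.84) and Casz1 (0.84), and for Ephb4 Caskin2 (0.89), Magi1 (0.88) and Hyal2 (0.86). These values describe the sums, which share libraries and differ in depth.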

How the data were processed

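The deposited files were raw UMI counts per gene and cell barcode (10x 3′ v3), made by the authors with Cell Ranger. The file headers name version 6.1.2 and the submitters' processing notes 3.1.0, with the mm10 genome. Cells with more than 500 detected genes and under 20% mitochondrial UMIs were kept (18200 of 20324 barcodes). Lineages required a marker score of at least 0.4 and a lead of 0.2 over other lineages. This placed 17125 cells, and 1809 (9.94%) lay within 0.05 of a limit. No doublet caller was run. Cells whose lineage scores were too low or too close were left out of the lineages. A cell that passed could still carry markers of another lineage, and gated basal cells held a median of 3 of 7 epithelial markers. Luminal cells whose subtype scores were too low or too close were kept as cells without a subtype. Rows sharing 1 of 58 repeated symbols were kept apart. UMIs were summed per library and class of at least 20 cells and tested over all genes with edgeR 4.0.16 in R 4.3.3 (quasi-likelihood F test, TMM factors, filterByExpr, Benjamini-Hochberg, threshold 0.05). EYFP classes of LATS1/2 KO were paired within mouse. Fold changes use TMM factors, whereas CPM use library totals. Alternatives included DESeq2 1.42.0, other scalings, filters and gates, thinning, a replicate block, equal sums and leaving out each mouse. Scripts were tested on simulated data. Intervals, floors (3 counts) and thinned shares cover counting error only.

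Of the 10 genes, those tested were named in each comparison, relatives where they passed the threshold, and partners by count with the 2 largest and 2 smallest changes past it. The members and lists were chosen with earlier results of these data known. The comparisons of EYFP-positive cells with WT and of cells without a subtype, and scaling by library totals, were added after seeing the data. Promoters came from RefSeq (GRCm38.p6) and gene positions from the GRCm38 annotation.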

Additional observations from a re-analysis of the deposited data

Results flagged for a closer look

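The effect of LATS1/2 deletion differed between luminal ER- and luminal ER+ cells for 6 of the 10 genes, by the interaction test in edgeR (adjusted p from 0.000161 to 0.0334). Over all genes 18.6% were called in this test (8.34% higher and 10.2% lower). The difference on the log2 scale, luminal ER- minus luminal ER+, was -1.08 for Efna1, which fell in luminal ER- cells and gave 0.01 in luminal ER+ cells. It was -1.53 for Efnb1 and -2.25 for Efnb2, ligands that rose in luminal ER+ cells and did not pass in luminal ER- cells. It was -2.38 for Epha2, which moved in opposite directions past the threshold in the subtypes, and -2.34 for Ephb3. Ephb6 gave 1.42, with 0.54 in luminal ER- and -0.99 in luminal ER+ cells, neither of them past the threshold.

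The first 5 of these kept direction and call under every alternative run. The Ephb6 difference did not pass with DESeq2 (adjusted p = 0.16), without WT 2 (0.175), without LATS1/2 KO 1 (0.199) or without LATS1/2 KO 2 (0.0597).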

How the results depend on the processing

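Of 108 pairs of gene and comparison, 55 were called, and 43 of these stayed past the threshold under every alternative tested. Of all genes, from 5.34% (fibroblasts) to 63.9% (EYFP-positive cells against WT) were called per comparison. The share was 55.0% in luminal ER- cells and 50.2% in EYFP = 0 cells against WT. How many calls over all genes stayed under every alternative was not counted. Of 646 alternatives to the called pairs, 583 kept direction and call, 42 lost the call, 19 moved with no test and 2 reversed, both between EYFP classes: Efna1 at 0.028 in cells without a subtype only and Epha2 at -0.093 in luminal ER- cells only. Among uncalled pairs, 27 alternatives became called. Of 35 calls of relatives and 135 of partners, 11 and 53 were lost under at least 1 alternative. Stromal results rest on few WT cells and EYFP classes on unequal depth. Leaving out a mouse from the EYFP classes, or from the WT lineages, left no residual degrees of freedom, so those are values without a test. Equal sums left none of the 10 genes tested in fibroblasts. The causes of the changes below were not tested.

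Called members of the 10 became 8 in luminal ER- cells with library totals, 7 with no low-count filter and with the stricter gate, and 5 to 7 on leaving out a mouse. EYFP-positive cells against WT gave 6 to 7 members on leaving out a mouse. In basal cells they were 0 with DESeq2 and 0 to 2 on leaving out a mouse, with 1273 and 1587 to 2367 of all genes. In luminal ER+ cells all-gene calls were 2349 with equal sums and 2335 to 3263 on leaving out a mouse. Fibroblasts gave 1 member and 839 genes with no low-count filter, 173 genes with equal sums, and 1 to 642 on leaving out a mouse (1 without WT 1, 40 without WT 2). Endothelial cells gave 0 members and 0 genes with no filter, 274 genes with DESeq2, 0 members and 352 genes with equal sums, and 0 to 2 members and 380 to 776 genes on leaving out a mouse. EYFP classes gave 1 member and 2068 genes with DESeq2, 1 and 948 with no mouse block, 1 and 1440 with thinned cells, 2 and 2824 in luminal ER- cells only, and 1 and 1101 in cells without a subtype only. EYFP = 0 cells against WT gave 5 to 8 members on leaving out a mouse. The interaction gave 1564 genes with DESeq2 and 1622 to 2399 on leaving out a mouse.

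Replicate numbers are not said to pair the mice. Deviations of same-numbered libraries correlated at 0.0093 to 0.0432 across genes, but with 1 library per mouse these values cannot show whether mice were paired. With the number as a replicate block, luminal ER- cells gave 7 called members (3 higher and 4 lower), basal cells 1, endothelial cells 2 and fibroblasts 686 genes. Without the block, 55.0%, 31.4% and 9.80% of all genes were called in luminal ER-, basal and endothelial cells. Library totals split calls in WT luminal ER- against ER+ cells as 3060 higher and 5426 lower (TMM 3892 and 4251), and basal against luminal ER- cells as 2687 and 1740 (2121 and 2604). EYFP = 0 cells against WT gave 5205 and 2424 (3725 and 3416), and EYFP-positive cells 5689 and 3474 (4473 and 4493).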

Other observations

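Perivascular cells and macrophages were in no comparison, with 8 and 1 and with 2 and 2 cells in WT, nor were lymphocytes, of which LATS1/2 KO 1 held 16. Perivascular cells of LATS1/2 KO, 28 and 37 cells, had 52.7 and 87.3 CPM of Epha2, on 5 and 11 UMIs. Efnb2, which mural cells are known to use in vessel assembly, was 63.5 CPM (8 UMIs) in LATS1/2 KO 2, and Efnb1 was 31.7 CPM (4 UMIs). In LATS1/2 KO 1 Efnb2 and Efnb1 rested on 1 and 2 UMIs, below the floor of 31.6 CPM set by 3 counts. Macrophages of LATS1/2 KO, 178 and 288 cells, had no more than 7.44 CPM of any of the 3 ephrins and 16.5 CPM of any of the 7 receptors, and Ephb6 was 0 in both, below floors of 3.69 and 2.48 CPM.

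In endothelial cells, Efnb2 without Ephb4 was detected in 6, 10, 33 and 23 cells of WT 1, WT 2, LATS1/2 KO 1 and LATS1/2 KO 2, Ephb4 without Efnb2 in 5, 8, 50 and 56 cells, and both in 2, 3, 13 and 16 cells. Neither was detected in 24, 13, 125 and 118 cells. At these rates of detection the counts do not show that the genes were expressed in separate cells.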
